A study of Mus musculus with 21 samples.

Results

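The genes of the mitochondrial respiratory chain and ATP synthase were followed through a mouse RNA sequencing series of 21 libraries. Members were chosen by name: genes whose names begin with Nduf and a subunit letter and number, the Sdh subunits, and names beginning Uqcr, Cox4 to Cox8 or Atp5, without the assembly factors named Ndufaf, Ndufa4l2 and Atp5f1. This gave 75 members among the 12404 genes listed in any of the 3 deposited tables. By name, 36 belonged to complex I, 4 to complex II, 8 to complex III, 12 to complex IV and 15 to complex V. All 75 had values in the MEF table and in the SKOM table with vitamin C, and 74 in the SKOM table without it, where Ndufc1, a small membrane-arm subunit of complex I, was not analysed.

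Oxidative phosphorylation couples electron transfer from NADH (complex I) and succinate (complex II) through coenzyme Q, complex III and cytochrome c to oxygen at complex IV, and the proton gradient drives ATP synthase, complex V. Most subunits are encoded in the nucleus, including all members here, and a core is encoded in mitochondrial DNA, whose transcripts were not analysed here. Fibroblasts that are reprogrammed towards pluripotency are known to shift from respiration towards glycolysis, and the factors NRF1, GABP (an ETS-family factor) and YY1 are known regulators of many subunit genes. Not every name describes a subunit of the complex it suits. Atp5sl is listed in GENCODE M21 as Dmac2, a factor that acts in complex I assembly, Cox7a2l is a factor in supercomplexes of complexes III and IV, and Ndufa4 is now counted as a subunit of complex IV.

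The cells were mouse embryonic fibroblasts (MEFs) of the ICR strain, taken at embryonic day 13.5 and used at passage 2. SKOM cells are such fibroblasts infected with retroviruses for Sox2, Klf4, Oct4 and c-Myc, and were harvested on day 5 of reprogramming in embryonic stem cell medium with vitamin C (Vc+) or without it (Vc-). In each medium there was 1 library each of cells carrying Tet1CD, Tet1CD with Dnmt1, Tet1CD with shDnmt1, Dnmt1, shDnmt1, shp53 with shDnmt1, and the control constructs Flag and shLuc. The MEFs were sequenced with Tet1CD, Dnmt1, shDnmt1, shp53, shp53 with shDnmt1, and Flag with shLuc. A seventh library in the MEF table was labelled 5C with Flag and shLuc, and its column header reads X5CDay4. The labels do not say what 5C is or from what point the day was counted. Tet1 encodes an enzyme that oxidises 5-methylcytosine, Dnmt1 the maintenance DNA methyltransferase, and shp53 and shDnmt1 are hairpins by name against p53 and Dnmt1. All constructs were delivered by retrovirus, and the labels do not say whether libraries came from separate cultures, so each p-value measures the spread between these libraries.

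The deposited values are whole numbers normalized within each table, and their read depth is unknown. Tet1 values were 2140 to 3129 in the 6 SKOM libraries labelled Tet1CD, against 11 to 88 in the 8 others. The MEF table held no Tet1 values, so the MEF library labelled Tet1CD could not be checked this way. Libraries labelled Dnmt1 did not show higher Dnmt1 than the controls by more than a few percent (975 against 957 in MEFs, 2381 against 2346 in Vc+ and 1001 against 984 in Vc- cells). With shDnmt1 alone, Dnmt1 was 208 in MEFs, 1154 in Vc+ and 527 in Vc- cells, a weaker lowering in SKOM cells against the same controls. Dnmt1 was also lower in some libraries with Tet1CD. It was 458 in MEFs with Tet1CD. In Vc+ cells it was 1080 with Tet1CD, 1224 with Tet1CD+Dnmt1 and 655 with Tet1CD+shDnmt1. In Vc- cells these libraries had 967, 778 and 437. The part of Dnmt1 levels in the results with Tet1CD was not tested. The MEF and SKOM tables held all 9 fibroblast markers examined. Of 6 pluripotency markers, the SKOM tables held Pou5f1 and Sox2, which are also the reprogramming genes. The libraries measure bulk RNA, so fewer cells with a transcript and less transcript per cell cannot be told apart.

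The promoters of members carried recognition motifs of the known regulators more often than promoters at large, by simple letter matching. A RefSeq promoter (GRCm38.p6, 250 bases before to 50 after the start) was matched for 59 members. The palindromic NRF1 motif was present in 5 of the 59 (8.47%) and in 1.07% of 27025 genes. The ETS core CCGGAAG, read on both strands, was present in 14 members (23.7%) and 9.93% of genes, and the YY1 motif AAGATGGC, also on both strands, in 9 members (15.3%) and 3.19% of genes. At least 1 of these motifs was found in 26 members (44.1%) and in 13.4% of genes. These 27025 genes include many with no values in the deposited tables, and a comparison with the listed genes alone was not made. Of the 20 members with a promoter that fell with Tet1CD, 1 held the NRF1 motif, 3 the ETS core and 2 the YY1 motif. Most of these 20 promoters held none of the motifs, and a link between motifs and the fall was not tested. The 3 promoters below were picked to show 1 motif each, in capitals. They belong to members that were lower with Tet1CD, described further on. Uqcrc1 lies at chr9:108936398-108936697 on the plus strand, Ndufs8 at chr19:3912725-3913024 on the minus strand and Ndufs7 at chr10:80249199-80249498 on the plus strand. The motif begins 31, 16 and 25 bases after the start in Uqcrc1, Ndufs8 and Ndufs7, in the transcribed part of each window. The Ndufs8 match is the reverse complement of the ETS core. The RefSeq start of Ndufs7 is 328 bases from the gene start in the deposited table.
Uqcrc1: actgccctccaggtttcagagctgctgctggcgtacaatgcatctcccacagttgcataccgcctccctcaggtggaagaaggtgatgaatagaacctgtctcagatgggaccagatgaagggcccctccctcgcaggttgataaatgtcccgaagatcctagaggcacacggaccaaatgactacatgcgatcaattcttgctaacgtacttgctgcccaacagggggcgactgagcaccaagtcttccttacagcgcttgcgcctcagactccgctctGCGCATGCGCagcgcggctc
Ndufs8: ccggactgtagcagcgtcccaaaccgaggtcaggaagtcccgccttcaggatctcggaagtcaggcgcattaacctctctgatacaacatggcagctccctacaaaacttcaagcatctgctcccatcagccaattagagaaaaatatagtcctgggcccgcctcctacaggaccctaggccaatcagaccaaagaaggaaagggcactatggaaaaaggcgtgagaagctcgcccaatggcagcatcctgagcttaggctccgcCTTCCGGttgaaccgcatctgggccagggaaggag
Ndufs7: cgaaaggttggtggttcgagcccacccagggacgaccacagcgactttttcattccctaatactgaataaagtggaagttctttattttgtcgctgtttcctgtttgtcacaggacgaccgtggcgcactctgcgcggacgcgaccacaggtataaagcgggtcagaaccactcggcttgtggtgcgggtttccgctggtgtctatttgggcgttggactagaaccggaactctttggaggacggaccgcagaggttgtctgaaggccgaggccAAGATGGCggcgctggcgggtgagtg

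In the control libraries, Atp5b, the catalytic beta subunit of ATP synthase, was the member with the highest value, 18111 in Vc+ SKOM cells, 8458 in Vc- SKOM cells and 7163 in MEFs. Per kilobase of transcript (1916 bases) its MEF control value was 3739, and Cox6b1, Cox6a1 and Cox4i1, nuclear subunits of cytochrome c oxidase, followed at 1675, 1555 and 1552 per kilobase. The median member had a value of 401 in the Vc+ control, 287.5 in the Vc- control and 335 in the MEF control, on scales that differ between tables. No member was among the genes that share the highest value of a table. The most abundant genes lie on coarse steps: 10 genes of a library share nearly the same value, and Atp5b sat on such a step in all 21 libraries, so its values repeat between libraries. Exons of 20 members overlap another gene, most on the opposite strand. Without a known strand setting their values are uncertain; among those named below are Atp5a1, Cox5a, Ndufa2, Ndufa3, Ndufa13, Ndufb2, Ndufb5, Ndufb6, Ndufb11, Uqcrb and Uqcrc2.

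Tet1CD was the only construct with which any member passed the test in SKOM cells, and the members that passed were lower. In the additive fit over the 14 SKOM libraries (limma, Benjamini-Hochberg adjusted p under 0.05), 24 of 74 members fell with Tet1CD (32.4%), against 24.9% of the 10711 genes tested, and 0 rose, against 20.3% of genes. At an unadjusted p under 0.05, 1 member was higher (Ndufa3, an accessory subunit of complex I), beside 23.9% of genes, and 34 were lower, beside 29.1%; in either direction this was 47.3% of members and 53% of genes. The fold change was below 0 for 64 of 74 members. The median log2 fold change over members was -0.18, beside -0.04 over all genes. By complex, 8 of 35 fell in complex I, 1 of 4 in complex II, 4 of 8 in complex III, 3 of 12 in complex IV and 8 of 15 in complex V. The shares in complexes I, II and IV were near the 24.9% of all genes, and those in complexes III and V were higher. Without the Vc+ shDnmt1 library 15 of 74 members fell, beside 2062 of 10711 genes, so the shares of members and genes were close. Without Vc+ Tet1CD+Dnmt1 they were close too, with 16 members and 2133 genes. Without the Vc- control or the Vc- Tet1CD library Ndufa3 rose, beside 2056 and 2390 genes.

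Markers of other cells moved with the same libraries. All 3 macrophage markers with values in both SKOM tables rose (Cd68, Laptm5 and Ptprc; their sum with Lyz2 was 1952 to 2614 with Tet1CD and 293 to 369 without in Vc+ cells, and without Lyz2 541 to 633 with and 258 to 337 without in Vc- cells). The other 6 of the 10 macrophage markers in the list were not analysed there. Of 9 fibroblast markers 5 rose, and their sum was 40269 to 46276 with Tet1CD and 27330 to 45436 without in Vc+ cells, and 33815 to 34939 with and 29994 to 33575 without in Vc- cells. Of 2 muscle markers 1 rose (307 to 348 with Tet1CD and 36 to 93 without in Vc+, 89 to 101 and 44 to 86 in Vc- cells). Of 3 epithelial markers 2 fell (360 to 406 with Tet1CD and 580 to 1176 without in Vc+, 126 to 193 and 191 to 340 in Vc- cells). Both Pou5f1 and Sox2 fell (5455 to 5759 with Tet1CD and 8657 to 10692 without in Vc+, 4930 to 6511 and 5662 to 7332 in Vc- cells). Their part in the members' fall was not tested.

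**Figure D1:**
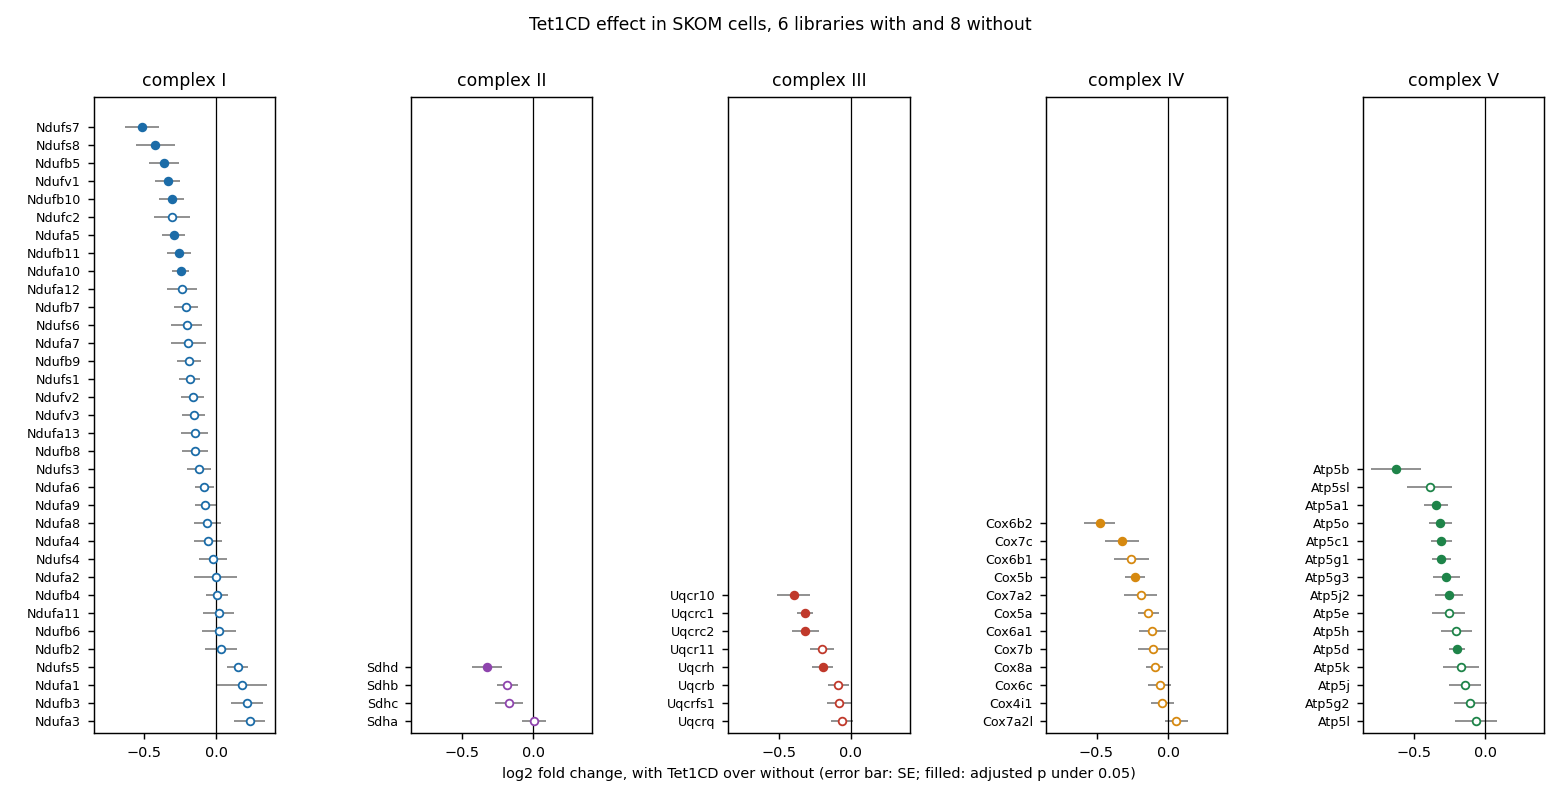
Log2 fold change of each member drawn with Tet1CD over without (horizontal axis) in the additive limma fit over 6 SKOM libraries with Tet1CD and 8 without, 1 panel per complex; error bars are the SE and filled points passed an adjusted p of 0.05. All 24 filled points lie left of 0, and every member drawn of complexes III and V has a fold change below 0.

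The largest fold change of any member was in ATP synthase. The values below are given for the Tet1CD, Tet1CD+Dnmt1 and Tet1CD+shDnmt1 libraries, and after them for the control, Dnmt1, shDnmt1 and shp53+shDnmt1 libraries. Atp5b had 9353, 7544 and 7544 in Vc+ cells with Tet1CD, against 18111, 18111, 18111 and 13552 without. In Vc- cells it had 7025, 8458 and 7025 with Tet1CD, against 8458, 8458, 7025 and 10788 without. The groups were apart in Vc+ cells, and in Vc- cells they overlapped. In ranks, the Vc+ libraries with Tet1CD placed Atp5b at 41 to 50 or 71 to 80, and those without at 11 to 20 or 21 to 30. Over both media the log2 fold change was -0.62 ± 0.17 (SE; limma adjusted p = 0.0123).

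Atp5a1, the alpha subunit that forms the catalytic head with Atp5b, had 5366, 5163 and 5728 in Vc+ cells with Tet1CD, against 7545, 8003, 7545 and 9354 without. In Vc- cells it had 4625, 3892 and 4220 with Tet1CD, against 4825, 4826, 4826 and 5064 without. Every Tet1CD library was below every other library in both media, and the fold change was -0.35 ± 0.08 (adjusted p = 0.0061, limma). The 7545 and 9354 of Atp5a1 lie on the same coarse steps as the 7544 and 9353 of Atp5b, so its values also repeat between libraries. Atp5o, the stalk subunit OSCP, changed by -0.32 ± 0.08 (adjusted p = 0.0084, limma). Exons of Atp5a1 overlap Haus1 on the opposite strand. The deposited locus of Atp5o extends beyond the M21 gene of that identifier, whose exons overlap a second gene named Atp5o. The values of Atp5a1 and Atp5o are therefore uncertain where reads could be shared. The other fallen members of this complex were Atp5c1 and Atp5d, the gamma and delta subunits of the central stalk, Atp5g1 and Atp5g3, which encode the c subunit of the membrane ring, and Atp5j2, a membrane subunit, with log2 fold changes of -0.31, -0.20, -0.31, -0.27 and -0.26. These 5 were taken beyond the naming rule after their values were seen. The third c-subunit gene, Atp5g2, did not pass the test (-0.10 on the log2 scale).

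Complex I members that fell came from both of its arms, but the share that fell was near that of all genes. Ndufs7, a core subunit that carries the last iron-sulfur cluster before coenzyme Q, had 107, 97 and 82 in Vc+ cells with Tet1CD, against 143, 151, 153 and 192 without. In Vc- cells it had 62, 91 and 62 with Tet1CD, against 104, 107, 78 and 85 without, and the groups overlapped. Its log2 fold change was -0.52 ± 0.12 (adjusted p = 0.0047, limma). Ndufs8, a second core iron-sulfur subunit, had 124, 158 and 96 in Vc+ cells with Tet1CD, against 174, 215, 231 and 235 without. In Vc- cells the Ndufs8 values were 133, 152 and 103 with Tet1CD and 142, 153, 130 and 144 without, so they overlapped. Its fold change was -0.43 ± 0.14 (adjusted p = 0.0243, limma), and the call was lost without each of 4 Vc+ libraries (the 3 with Tet1CD, and shDnmt1). Ndufb5, an accessory subunit of the membrane arm, changed by -0.36 ± 0.10 (adjusted p = 0.0147, limma), and its exons overlap Mrpl47 on the opposite strand. The other 5 complex I members that fell were Ndufv1, which binds NADH, and the accessory subunits Ndufb10, Ndufa5, Ndufb11 and Ndufa10, from -0.34 to -0.25 on the log2 scale; these 5 were named after their values were seen.

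In complex III, both large core proteins fell. Uqcrc1 had 1249, 1197 and 1133 in Vc+ cells with Tet1CD, against 1462, 1624, 1552 and 1428 without. In Vc- cells it had 840, 907 and 754 with Tet1CD, against 1077, 986, 943 and 1005 without. The groups were apart in both media, the fold change was -0.32 ± 0.06, and its adjusted p of 0.0015 (limma) was the lowest of all members. Uqcrc2, the other core protein, changed by -0.32 ± 0.10 (adjusted p = 0.0178, limma), a call lost without the Vc+ shDnmt1 library, and its exons overlap Pdzd9. Uqcr10, a small subunit, changed by -0.40 ± 0.12 (adjusted p = 0.0155, limma), and the fourth member that fell was Uqcrh, the hinge protein beside cytochrome c1 (-0.20). In complex II, Sdhd, a membrane anchor of succinate dehydrogenase, had 386, 380 and 304 in Vc+ cells with Tet1CD, against 451, 532, 527 and 555 without. In Vc- cells its values were 267, 270 and 288 with Tet1CD, against 339, 316, 265 and 272 without, and the groups overlapped. Its fold change was -0.32 ± 0.11 (adjusted p = 0.0269, limma), and the call was lost without any 1 of 6 libraries (the Vc- control and, in Vc+ cells, Dnmt1, shDnmt1 and the 3 with Tet1CD). Sdha, the flavoprotein that oxidises succinate, had a fold change of 0.00 and did not pass.

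Cytochrome c oxidase showed its largest change in Cox6b2, the isoform of subunit 6b that is known from testis. It had 90, 83 and 55 in Vc+ cells with Tet1CD, against 125, 128, 93 and 78 without. In Vc- cells it had 90, 62 and 73 with Tet1CD, against 103, 103, 87 and 62 without. The groups overlapped in both media, and the library with shp53 was the lowest of those without Tet1CD in each. The log2 fold change was -0.48 ± 0.11 (adjusted p = 0.0039, limma). Cox7c changed by -0.32 ± 0.12 (adjusted p = 0.0461, limma), a call lost without any 1 of 10 libraries, and Cox5b by -0.23 ± 0.07 (adjusted p = 0.0202, limma), a call lost without Vc+ Dnmt1, Vc+ Tet1CD+Dnmt1 or Vc+ shDnmt1. Both are structural subunits. Of the isoform partners, Cox4i1, Cox6a1, Cox6b1, Cox7a2, Cox7a2l and Cox8a did not pass, with log2 fold changes from -0.26 for Cox6b1 to 0.06 for Cox7a2l. The muscle or lung isoforms Cox4i2, Cox6a2, Cox7a1 and Cox8b and the testis isoform Cox8c were not analysed here.

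**Figure D2:**
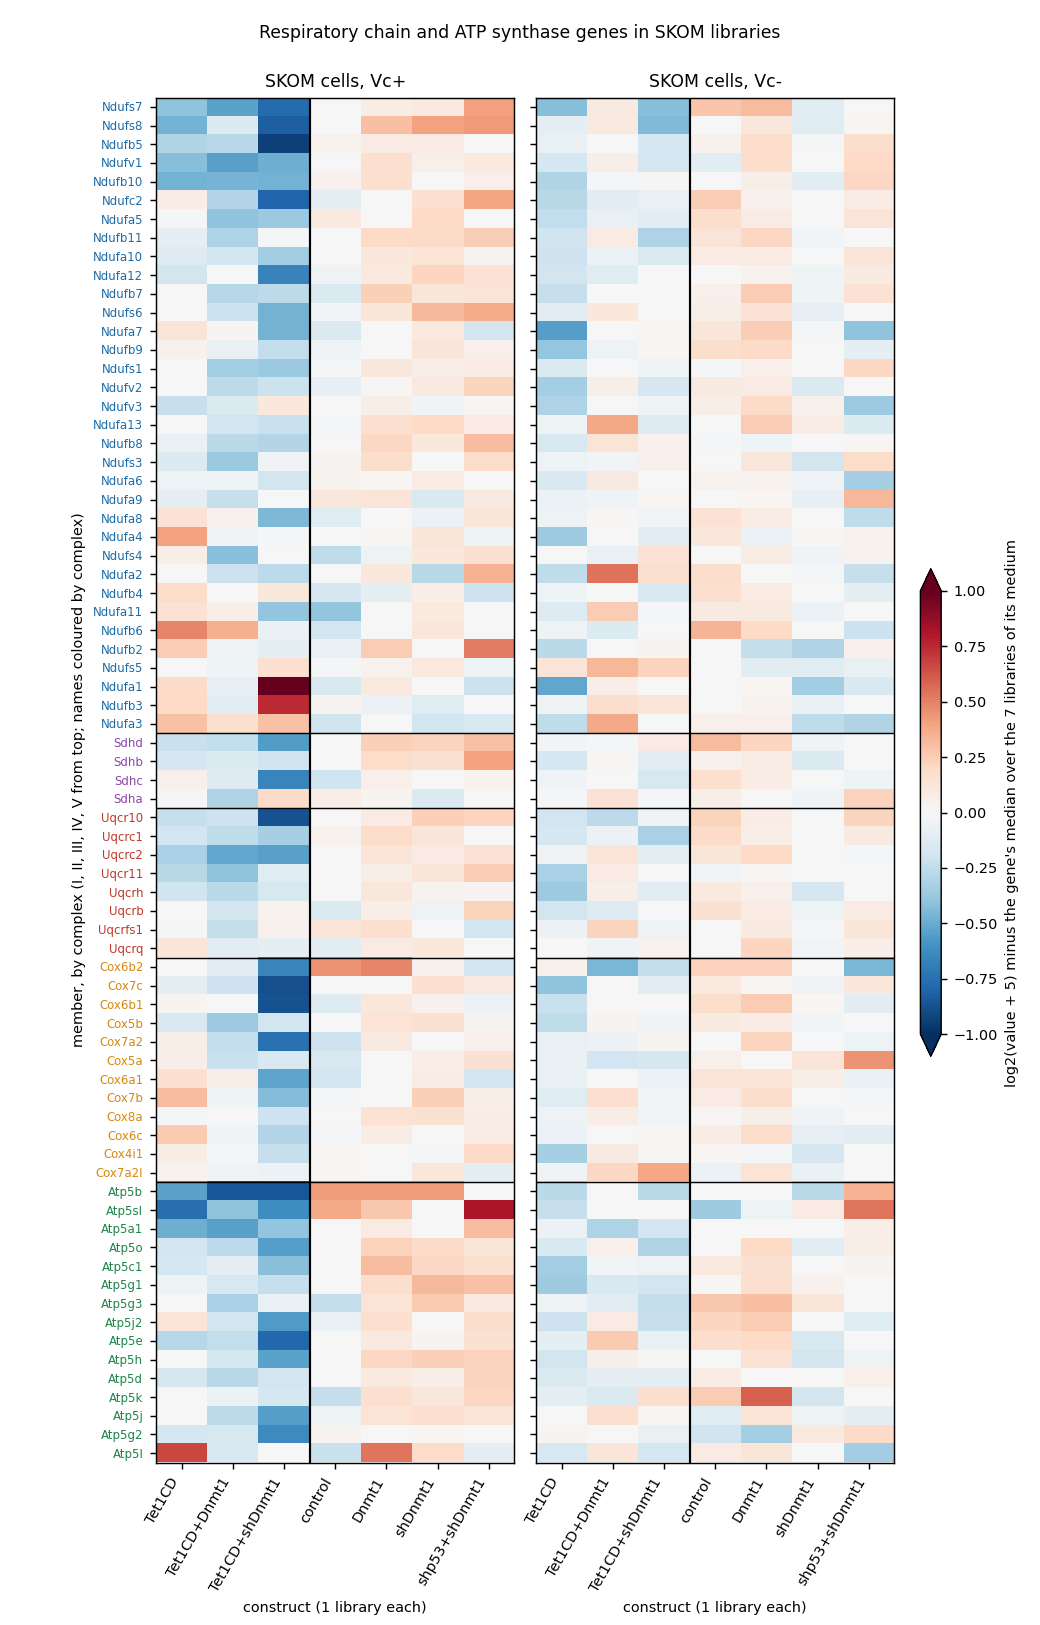
Log2(value + 5) of the members drawn minus each gene's median over the 7 libraries of its medium (colour, red higher and blue lower), with Vc+ libraries in the left panel and Vc- libraries in the right; within a panel the 3 Tet1CD libraries stand left of the black line and members are grouped by complex and ordered by their Tet1CD fold change. The Vc+ Tet1CD+shDnmt1 column is the bluest, with Ndufa1 and Ndufb3 in red.

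The pairs of libraries that differ by Tet1CD alone did not give equal results. In Vc+ cells, Tet1CD over control had a median log2 ratio of 0.00 over members, with 37 of 75 below 0. Tet1CD+Dnmt1 over Dnmt1 had a median of -0.33 with 68 of 75 below 0, and Tet1CD+shDnmt1 over shDnmt1 a median of -0.40 with 64 of 75 below 0. In Vc- cells, Tet1CD over control had 67 of 74 members below 0 with a median of -0.22, Tet1CD+Dnmt1 over Dnmt1 had 50 below 0 with -0.07, and Tet1CD+shDnmt1 over shDnmt1 had 38 below 0 with -0.01. The pair without either Dnmt1 construct thus had the lowest member median of the 3 in Vc- cells and the highest in Vc+ cells. The median over all genes lay between -0.06 and 0.00 in the 6 pairs. The difference between pairs was not tested, as each holds 2 libraries.

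In the Vc+ Tet1CD+shDnmt1 library 22 of 75 members lay at least 1.5-fold from their median over the Vc+ libraries, 20 below and 2 above. This was 29.3% of members, near the 26.9% of all genes. The other SKOM libraries had 0 to 4 such members each, beside 1.17% to 28.2% of all genes. The 2 above were Ndufa1, an accessory subunit of complex I, with 515 against 213 to 284 in the other 6 Vc+ libraries, and Ndufb3, a membrane-arm subunit, with 609 against 332 to 416. They are named after their values were seen. In the Vc+ Tet1CD library 4 members lay that far out (5.33%, beside 28.2% of all genes). Without the Vc+ Tet1CD+shDnmt1 library 19 of 74 members fell in the additive fit, beside 2335 of 10711 genes.

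Within the media fitted apart, 20 of 75 members fell with Tet1CD in Vc+ cells (26.7%, against 23.6% of 12021 genes) and 0 rose (20.7% of genes). At an unadjusted p under 0.05, 1 member was higher and 28 were lower, 38.7% of members in all, beside 53.3% of genes. Without Vc+ Dnmt1 or Vc+ Tet1CD+Dnmt1 only 4 members fell, beside 1049 and 1085 genes. Without Vc+ shDnmt1 or Vc+ Tet1CD+shDnmt1 Ndufb6, an accessory subunit of complex I, rose, beside 2537 and 2507 genes. In Vc- cells 3 of 74 fell (4.05%, against 7.38% of 10722 genes) and 1 rose (1.35%, against 7.25%). The 3 were Atp5g3 (-0.36), Atp5g1 (-0.30) and Uqcrc1 (-0.27). The member that rose was Ndufs5, an accessory subunit of complex I, with 497, 573 and 528 with Tet1CD against 453, 421, 417 and 430 without. These 2 tables were fitted with few residual degrees of freedom, and the 4 Vc- calls were all lost without the Dnmt1, the Tet1CD+Dnmt1, the shDnmt1 or the Tet1CD+shDnmt1 library. Counting only whether the groups overlap, every Tet1CD library was lower than every other library for 30 members in Vc+ cells (31.3% of genes) and for 11 in Vc- cells (15.7%). Every Tet1CD library was higher for 1 member in each medium, against 25% of genes in Vc+ and 15.3% in Vc- cells.

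The Tet1CD effect differed between the media for 5 members, each with a more negative effect in Vc+ cells. In the fit with vitamin C interaction terms, these 5 of 74 (6.76%) stood beside 8.28% of genes, and 0 members had a more positive effect in Vc+ cells, beside 8.57% of genes. At an unadjusted p under 0.05, 2 members (Ndufb4 and Ndufb6) had a more positive and 13 a more negative effect in Vc+ cells, 20.3% of members in all, beside 31.9% of genes. Atp5b had the largest difference, -1.07 ± 0.13 on the log2 scale (adjusted p = 0.0014, limma), with a fitted effect of -1.16 in Vc+ and -0.09 in Vc- cells. Its libraries sit on the coarse steps described above. Atp5sl, the Dmac2 gene, had 66, 86 and 73 in Vc+ cells with Tet1CD, against 151, 140, 115 and 206 without, and 69, 82 and 82 in Vc- cells with Tet1CD, against 63, 79, 87 and 121 without. The groups were apart in Vc+ cells and overlapped in Vc- cells, and the difference was -0.84 ± 0.18 (adjusted p = 0.0134, limma), a call lost without the Vc- control or the Vc- Tet1CD library. Ndufb10 had 335, 336 and 334 in Vc+ cells with Tet1CD, against 479, 525, 466 and 482 without, and a difference of -0.46 ± 0.13 (adjusted p = 0.0443, limma). Ndufv1 and Uqcrc2 had differences of -0.44 ± 0.12 and -0.43 ± 0.12 (adjusted p = 0.0316 and 0.0388, limma). Without each of 8 libraries only 2 of the 5 calls were left, beside 311 to 579 of 10711 genes called more negative. These 8 were the 6 Vc- libraries other than shp53+shDnmt1, Vc+ Dnmt1 and Vc+ Tet1CD+Dnmt1. Without Vc+ shDnmt1 or Vc+ Tet1CD+shDnmt1, Ndufb6 was called in the positive direction, beside 1148 and 1142 genes.

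**Figure D3:**
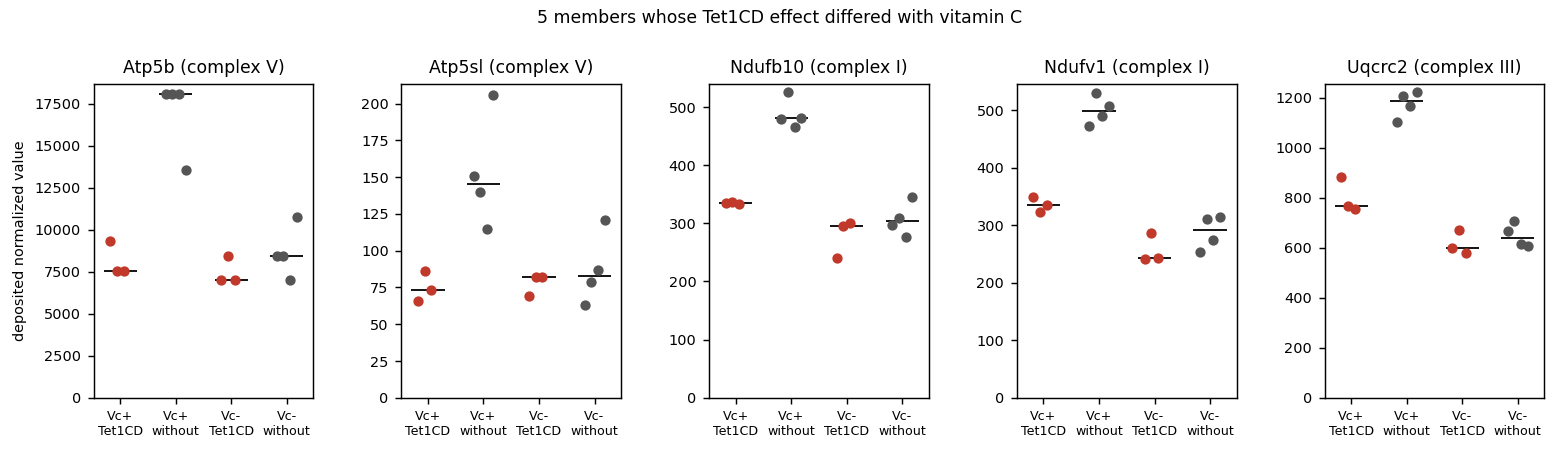
Deposited values of Atp5b, Atp5sl, Ndufb10, Ndufv1 and Uqcrc2 in each SKOM library (points; vertical axes start at 0; red with Tet1CD, grey without; lines are medians) in Vc+ and Vc- cells, which were normalized apart. In Vc+ cells the red points lie below all grey points in each panel, and in Vc- cells they overlap in each.

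Genes that work with the complexes were counted in the same fit. Of 10 other subunits and partners with values, 8 fell and 0 rose, among them Cyc1 (-0.65), the cytochrome c1 of complex III, Slc25a5 (-0.62), an ADP/ATP carrier, and Cycs (-0.40), cytochrome c. Of 39 assembly factors 9 fell and 0 rose, led by Uqcc2 (-0.61) and Uqcc3 (-0.39) for complex III and Cox10 (-0.43), which makes heme for complex IV. Of 12 genes of coenzyme Q synthesis 4 fell, led by Coq7 (-0.49), Coq4 (-0.47) and Pdss1 (-0.41), and 1 rose (Coq10b, 0.39). Of 16 regulators of mitochondrial biogenesis 7 fell and 0 rose. Those with the largest changes were Peo1, the mitochondrial DNA helicase (-0.48), Gabpb2 of GABP (-0.46) and Tfam, which packages and transcribes mitochondrial DNA (-0.44).

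Of 18 genes of the TCA cycle and pyruvate dehydrogenase 9 fell and 0 rose, led by Idh2 (-0.57), Suclg2 (-0.46) and Idh3g (-0.35). Of 14 glycolytic enzymes 7 fell, led by Pkm (-0.77), Eno1 (-0.64) and Pfkl (-0.54), and 2 rose, Pfkm (0.44) and Hk1 (0.39). Of 6 genes known from the hypoxic switch of respiration 2 fell, Pdk1 (-0.81), a kinase that holds back pyruvate entry, and Lonp1 (-0.25), a mitochondrial protease. The list medians ran from -0.26 to -0.08 on the log2 scale, beside -0.04 over all genes and -0.18 over the members. These lists, like the members, are set beside the same background of 24.9% fallen and 20.3% risen genes.

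With the Dnmt1 construct, the Dnmt1 hairpin and the p53 hairpin, 0 members rose and 0 fell in SKOM cells (limma adjusted p). The background was as low, with 0% of genes for Dnmt1, 0.0187% fallen for shDnmt1 and 0.00934% fallen for shp53, and 0% risen for all 3. At an unadjusted p under 0.05 there were 0 members for Dnmt1 (0.784% of genes), 1 for shDnmt1 (1.35% of members, 3.58% of genes) and 3 for shp53 (4.05% of members, 10.5% of genes). The 1 for shDnmt1 was Cox6b2 (-0.40 ± 0.13). Those for shp53, a term fitted from shp53+shDnmt1 libraries beyond shDnmt1, were Atp5sl (0.61 ± 0.25), Ndufb2 and Cox5a, all higher. Median log2 fold changes over members were 0.06 for Dnmt1, -0.02 for shDnmt1 and 0.05 for shp53. The SE of a member's fold change was 0.12, 0.12 and 0.15 in the median. Changes well above 1 SE also went uncalled, as for Cox6b2 with shDnmt1 and Atp5sl with shp53. The absence of calls therefore leaves room for changes of such sizes. Atp5f1, a peripheral stalk subunit outside the chosen names, did differ by hairpin, with 457 in MEFs carrying shDnmt1, against 2438 in the control, and 736 with shp53+shDnmt1, against 2321 with shp53.

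Vitamin C and reprogramming were compared only as ratios of libraries, because the tables were normalized apart; each pair was centred on its median over all genes, and no test was made. With vitamin C, 0 of 74 members were higher or lower in all 7 pairs with a median of 1.5-fold, against 1.2% of genes higher and 1.53% lower. Ndufa13, Cox7a2l and Cox6b2 were lower in every pair by less, with median log2 ratios of -0.36, -0.33 and -0.30, and 0 members were higher in every pair (8.1% of genes were lower and 6.75% higher in every pair). Atp5g3 had the highest median ratio, 0.34, and was above 0 in 6 of 7 pairs. The member median in a pair ran from -0.21 to 0.14 around the median gene. Without centring, the median gene itself was higher in Vc+ libraries by 0.52 to 0.57, and 20 members then counted as higher.

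SKOM cells differed from MEFs in few members. With vitamin C, 5 of 75 were higher in all 5 pairs with a median of at least 1.5-fold (15.9% of genes) and 3 were lower (18.7%). Without vitamin C, 2 of 74 were higher (14.2% of genes) and 1 lower (15.4%). At any size, 17 members were higher and 16 lower in every Vc+ pair (31.2% and 31.9% of genes), and 14 higher and 14 lower in every Vc- pair (30.9% and 31.6%). Cox6b2 was the highest in both, by a median log2 ratio of 1.14 with and 1.44 without vitamin C, with values of 125 in Vc+ and 103 in Vc- control SKOM cells, against 43 in control MEFs. Atp5a1 was higher in both by 0.64 and 0.61. Atp5b (1.03), Atp5g3 (0.59) and Uqcr11 (0.59), a small subunit of complex III, were higher with vitamin C. For Atp5b the lowest of the 5 ratios was 0.03, between the shp53+shDnmt1 libraries. Uqcrb, a subunit of complex III that binds coenzyme Q, was lower in both media, by -0.60 with and -0.96 without vitamin C, with 643 and 477 in control SKOM cells against 790 in control MEFs. Ndufv3 (-0.69), an accessory subunit of complex I, and Cox6b1 (-0.61) were lower with vitamin C. As a share of the Cox6b pair per kilobase, Cox6b2 took 19.1% in Vc+ and 18.9% in Vc- control SKOM cells, against 5.57% in control MEFs. Without centring, the Vc+ counts were 15 higher and 0 lower and the Vc- counts 1 higher and 8 lower, and without the shDnmt1 pair 2 were higher in Vc+ and 1 in Vc- cells.

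**Figure D4:**
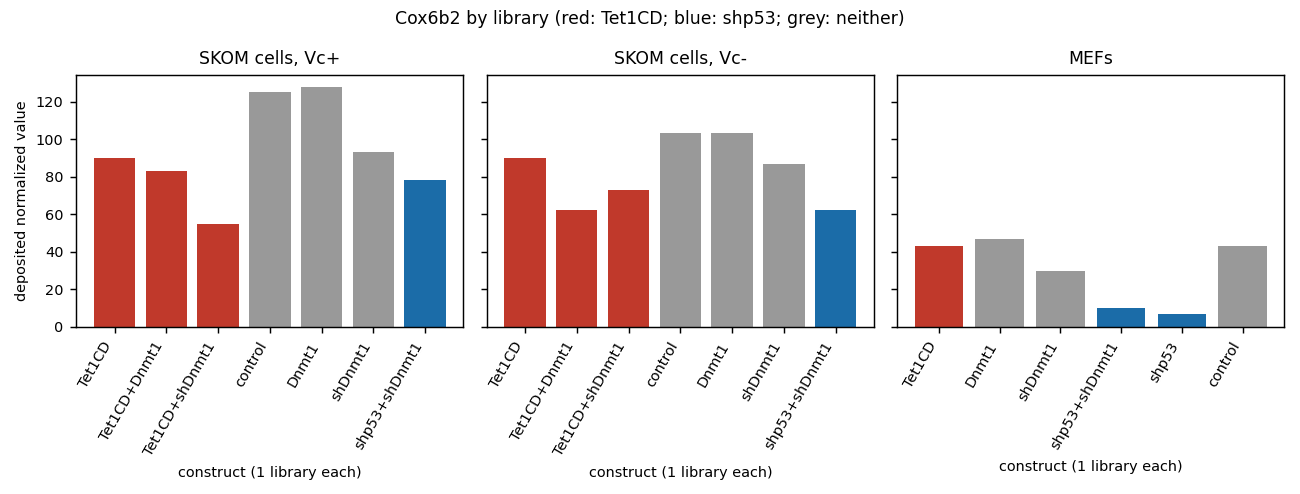
Deposited value of Cox6b2 (vertical axis, from 0) in the 7 Vc+ and 7 Vc- SKOM libraries and the 6 MEF libraries, 1 bar per library; red bars carry Tet1CD, blue bars shp53 and grey bars neither, and each panel was normalized apart. The blue MEF bars stand at 10 and 7, against 30 to 47 in the other 4 MEF libraries; the 5C library, at 553, is not drawn.

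Among the MEF libraries, Cox6b2 was the only member that passed the rule for a construct, at least 1.5-fold in every pair. With shp53 it had 7, against 43 in the control, and with shp53+shDnmt1 10, against 30 with shDnmt1 alone, log2 ratios of -2.00 and -1.22 (6.27% of genes were lower in both pairs and 6.14% higher). Trp53 values were 157 and 186 in these libraries, against 1008 and 966. In SKOM cells the p53 hairpin term for Cox6b2 was -0.35 ± 0.17 (limma adjusted p = 0.49) and did not pass. Trp53 was lowered less there. It had 621 with shp53+shDnmt1 against 1304 with shDnmt1 in Vc+ cells, and 453 against 810 in Vc- cells. The other members had shp53 ratios that changed sign between the pairs or stayed under 1.5-fold in at least 1 of them; Atp5b was closest, at 0.48 and 0.60. For shDnmt1 (background 0.646% higher and 0.753% lower in both pairs) and for the single pairs with Tet1CD (6.08% and 7.2%) and Dnmt1 (1.43% and 1.46%), 0 members passed. With Tet1CD the largest ratios in MEFs were -0.49 for Ndufs8 (108 against 154) and 0.42 for Ndufa5 (213 against 158). The member median for Tet1CD in MEFs was 0.07, with 45 of 75 above 0. The shDnmt1 pairs were unequal. Over the control the member median was 0.03, with 44 of 75 above 0. For shp53+shDnmt1 over shp53 it was 0.31, with 66 of 75 above 0. Each of these ratios compares 2 libraries and has no replicate check.

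The 5C library held most members at far higher values than the MEF control. Against the MEF control, 65 of 75 were at least 1.5-fold higher and 0 lower, beside 29.7% of genes higher and 37.9% lower, and the median log2 ratio was 2.19 over members and -0.14 over all genes. Ndufa2, an accessory subunit of complex I, had 3602 in 5C against 79 in the control. Cox6c, a subunit of complex IV, had 8052 against 393, and Ndufa4 7648 against 431. Among the 10 members not called higher, Sdha had 956 in 5C against 1349 in the control, Atp5a1 3447 against 3832 and Uqcrc2 719 against 750, while the large complex I subunits Ndufs1, Ndufv1 and Ndufa10 were higher, by 0.64, 1.02 and 1.51 on the log2 scale (named after their values were seen). The median ratio was 2.30 in complex I, 2.64 in complex III, 2.19 in complex IV and 1.95 in complex V, and 0.31 in complex II.

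Transcript length moved with the 5C ratio. Over 716 genes with transcripts of up to 1000 bases the median log2 ratio was 1.49, and over 10048 longer genes it was -0.25. The 50 members with short transcripts had a median of 2.41 and the 25 longer ones of 1.02. Spearman's rho with length was -0.41 across 10764 genes and -0.49 across the 75 members, as a description of 2 libraries that share 1 annotation. The 5C library also followed another distribution of values, with 97.1% of its ranks holding a value other than the control's. The part of length and of the distribution in the members' high values was not tested, and the library entered no other comparison. Across the Tet1CD fold changes in SKOM cells rho with length was 0.09 over genes and -0.16 over members.

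**Figure D5:**
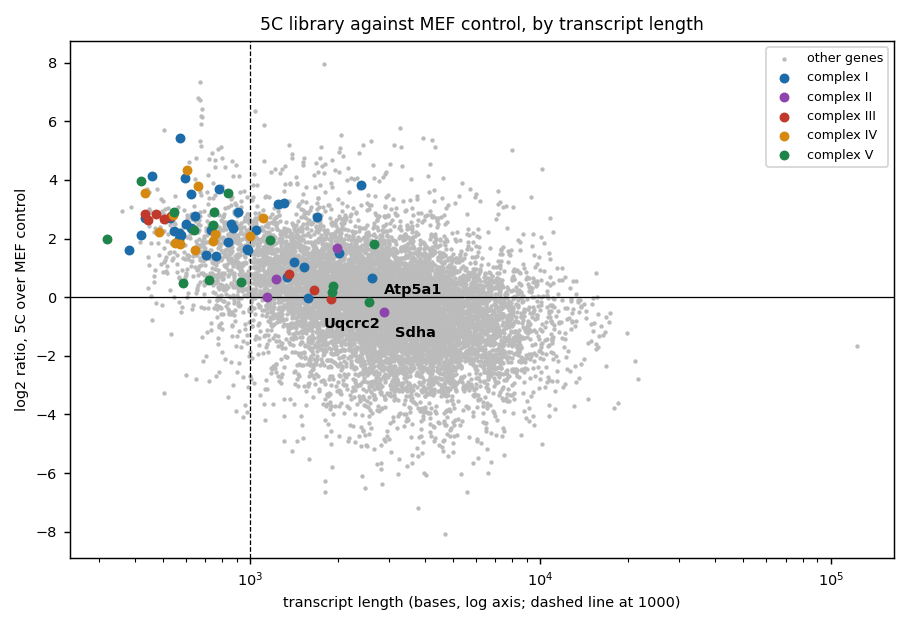
Log2 ratio of the 5C over the MEF control library (vertical axis) against transcript length in bases (horizontal log axis, dashed line at 1000) for 10764 genes; members are coloured by complex and other genes are grey. Short members lie mostly between 1 and 4, and Sdha, Atp5a1 and Uqcrc2 lie near or below 0.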

How the data were processed

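Total RNA was sequenced from TruSeq libraries, per the labels' protocols. Bowtie, RSEM and the build mm10 appear in the submitters' processing notes with no version or role. For strand, gene filter and normalization the sources used here give no method. Each deposited value is a score: a whole number, normalized by the authors before deposit. Most libraries of a table share nearly 1 list of values; the libraries furthest from this were 5C, MEF Tet1CD and Vc+ Tet1CD+shDnmt1, in which 97.1%, 35.8% and 15% of ranks held another value than in the control. Depth is unknown. Values were analysed as log2(value + 5), so fold changes of low genes are understated. Genes with a mean of at least 10 were fitted with limma 3.58.1 (R 4.3.3, intensity trend), over all genes, and adjusted by Benjamini-Hochberg at 0.05; no member was lost to this filter. The code was tested on simulated data. Transcript lengths are medians over protein-coding transcripts of GENCODE M21; exons of 20 members overlap another gene, and small subunits have pseudogenes that could share reads. Members, lists and the rule for named genes (up to 3 called members per complex and direction, isoform partners, the 5 most extreme ratios) were chosen with earlier results of these data known. Alternatives were other pseudocounts, filters, scalings and variance models, and leaving out each library. 1 member is not reported or drawn by name here; it is kept in the counts.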

Additional observations from a re-analysis of the deposited data

Results flagged for a closer look

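The Tet1CD effect differed between media, by the interaction term of limma, for 5 members: Atp5b (-1.07), Atp5sl (-0.84), Ndufb10 (-0.46), Ndufv1 (-0.44) and Uqcrc2 (-0.43), on the log2 scale and more negative in Vc+ cells. The share of members was below that of all genes (6.76% and 8.28%). The Vc+ libraries with Tet1CD also had macrophage marker sums (Cd68, Laptm5, Lyz2 and Ptprc) of 1952 to 2614, against 293 to 369 without. In the Vc- libraries the sums, without Lyz2, were 541 to 633, against 258 to 337. The sums of the media hold unlike genes and were normalized apart, so their levels cannot be compared. Markers of each cell type examined differed in the same fit. A more positive effect in Vc+ cells was called for 2 of 3 macrophage, 4 of 9 fibroblast and 1 of 2 muscle markers. A more negative one was called for 1 of 3 epithelial and 1 of 2 pluripotency markers. The part of these markers in the difference was not tested.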

How the results depend on the processing

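No paired test was run. Matched construct backgrounds entered the fits as terms, and matched pairs of libraries were described as ratios. Without the intensity trend of limma, 12 members fell in Vc+ cells (20 with it), 0 fell and 0 rose in Vc- cells (3 and 1) and 2 differed between media (5). Among all genes 2535 fell in Vc+ cells without the trend (2836 with it), and 100 fell and 204 rose in Vc- cells (791 and 777). Between media 669 genes had a more negative effect (887). With all libraries quantile normalized together 1 member was lower in Vc+ SKOM cells than in MEFs (3). Without centring, 20 members were higher with vitamin C (0), SKOM cells had 15 higher and 0 lower with vitamin C (5 and 3), and 1 higher and 8 lower without it (2 and 1). Leaving out each library in turn, the Tet1CD count was 15 to 27 fallen and 0 to 1 risen, in Vc+ cells 4 to 27 and 0 to 1, in Vc- cells 0 to 3 and 0 to 1, and between media 2 to 6 and 0 to 1. Fallen genes ran from 2011 to 2925, 1049 to 2943, 2 to 1202 and 311 to 1173 in the same order. Leaving out each pair, 2 to 5 members were higher and 2 to 4 lower in Vc+ SKOM cells than in MEFs, and 1 to 3 higher in Vc- cells. The cause of these moves was not tested. Of 580 values of named members under an alternative, 470 kept direction and call, 110 kept only direction and 0 reversed. The depth behind the values is unknown, so it could not be set against any call.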
